A study of Mus musculus with 2 samples.

Results

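The genes described here are 45 regulators of apoptosis and necroptosis and targets of the tumour suppressor p53, taken by gene symbol from a list. All 45 symbols were found among the 21829 gene symbols with a value. The values come from RNA sequencing of C2C12, an immortalised mouse myoblast line, with 1 library from WT cells and 1 library from Gne KO cells. The KO line was derived from the WT line with CRISPR-Cas9, through an indel in exon 2 of Gne, and was expanded as an isolated clone. Both lines were grown in medium with serum, and no further treatment is named for either. With a single KO clone and a single library of each line, an effect of Gne loss, a difference between clones and a difference between libraries cannot be told apart, and no test or error can be given for any value below. Nothing was tested for significance, and each difference is described by its size.

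Apoptosis through mitochondria is set by the Bcl2 family. BH3-only proteins sense damage, guardians such as Bcl2l1 and Mcl1 hold them back, and the effectors Bax and Bak1 open the outer mitochondrial membrane. Cytochrome c then joins Apaf1 to form the apoptosome, which activates Casp9 and, through it, the later steps of the caspase cascade. Death receptors such as Fas and Tnfrsf1a reach the same end through Fadd and Casp8, or, when Casp8 is blocked, necroptosis through Ripk1, Ripk3 and Mlkl. p53 responds to DNA damage and raises transcription of genes of arrest, repair and death, among them its own inhibitor Mdm2. The inflammatory caspases cleave gasdermins and cytokines instead.

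Gne itself was 6.67 FPKM in WT and 7.34 FPKM in KO, where FPKM is the number of fragments scaled by transcript length and by the size of the library. Its RNA was thus not lower in the library labelled KO. A small indel need not lower the RNA, so this value does not check the label. The values of all genes summed to 568543 FPKM in WT and 574253 FPKM in KO. Among the markers of the cell type, Myf5 was 9.14 FPKM in WT and 20.3 FPKM in KO, while Des was 97.6 and 3.84 FPKM and Myod1 59.97 FPKM and listed at 0. Of 8 myoblast markers 6 averaged 1 FPKM or more, and 4 of these were more than 2-fold lower in KO. Fewer cells of a type and less RNA per cell cannot be told apart in such bulk RNA. Among the 8 macrophage markers, Ptprc, Adgre1, Itgam and Tyrobp were listed at 0 in both libraries, and most of that list's sum was due to Cd14, at 19.6 FPKM in WT and 18.4 FPKM in KO. Of 6 fibroblast markers, 3 passed the filter and 2, Col1a1 and Col1a2, were more than 2-fold higher, while Lum and Thy1 were listed at 0. The fibroblast list summed to 258 FPKM in WT and 908 FPKM in KO, above the 246 and 54.1 FPKM of the myoblast list. Most of the fibroblast sums was due to collagen genes, Col1a2 at 237 FPKM in WT and 621 FPKM in KO and Col1a1 at 9.66 and 273 FPKM. Pdgfra, the third to pass, was 10.8 and 12.3 FPKM. The part of these marker shifts in the results below was not tested. The 5 endothelial markers summed to 0.010 and 0.028 FPKM and the 6 epithelial markers to 0.315 and 0.020 FPKM.

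The comparison asks how the KO line differs from the WT line in its death and p53 genes. Most members were nearly alike in both libraries, and 4 stood apart. Casp4 and Casp12, neighbouring inflammatory caspases, were both higher in KO, with log2 fold changes of 1.95 and 1.33, and the p53 target Ccng1 was higher with 1.11. Ripk3, the kinase that commits a cell to necroptosis, was lower in KO with -3.03. Fold changes here and below are log2((KO + 1)/(WT + 1)), which understates the change of low genes. With a pseudocount of 5 in place of 1, Casp4 and Casp12 came to 0.93 and 0.85, so that Ccng1 was the 1 member above the upper 2-fold line. Here a difference of more than 2-fold means a value beyond 1 on that scale. Of the 45 members, 37 had a mean of at least 1 FPKM over both libraries, and 8 fell below this filter. Above the upper 2-fold line lay 3 of these 37, and below the lower line lay 1. Casp4, at 0.851 FPKM in WT, passed the filter only through KO, and Ripk3, at 0.396 FPKM in KO, only through WT. Of all 10542 genes past the same filter, 2.84% lay above the upper line and 3.43% below the lower one. The 3 members above the line were 8.11% of the 37, a share that rests on 3 genes. The median log2 fold change of the members was 0.07, beside 0.0061 for all genes. A higher value in KO, by any amount, was seen for 23 of the 37 members, or 62.2%, beside 50.7% of all genes. More than 1.5-fold apart were 6 members, or 16.2%, beside 15.2% of all genes, so at this cut the members differed about as often as all genes. More than 2-fold apart in either direction were 10.8% of the members, a share that rests on 4 genes, beside 6.27% of all genes. The role groups and lists below hold few genes, so 0 past the 2-fold line does not set a group apart from all genes.

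**Figure D1:**
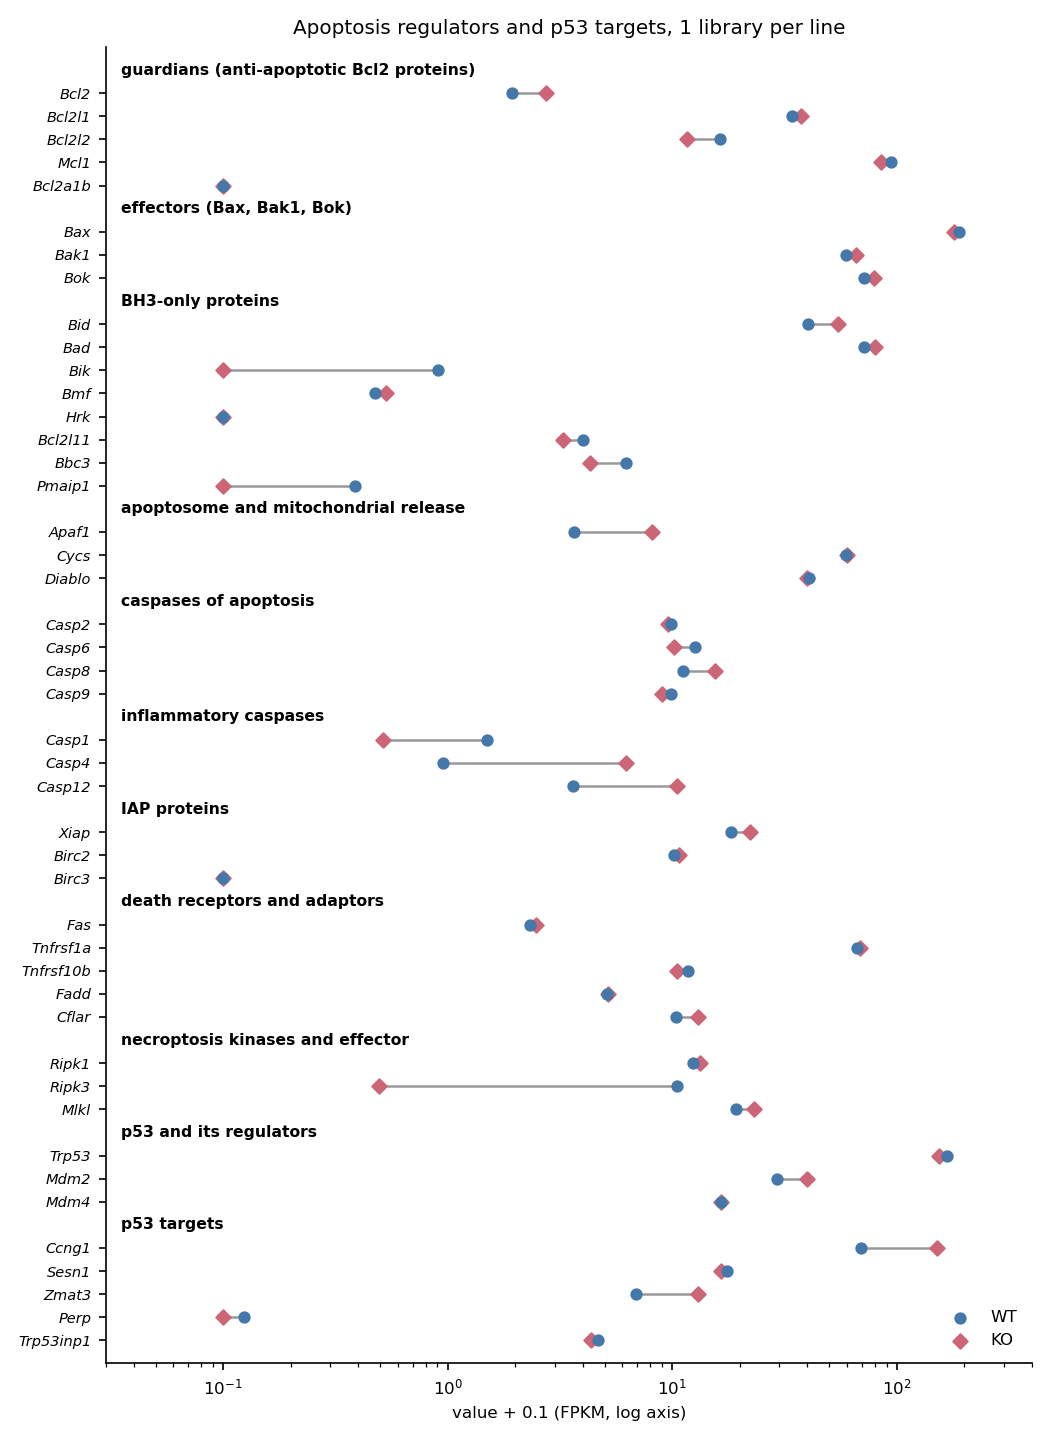
Value of each of the 45 members in the WT library (blue circle) and the KO library (red diamond), in FPKM plus 0.1 on a log axis, grouped by role. Ripk3 has the longest line to the left, at 10.4 FPKM in WT and 0.396 FPKM in KO, and Casp4, Casp12, Apaf1, Zmat3 and Ccng1 have the red diamond well to the right of the blue circle.

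The 4 genes past the 2-fold line are described first, with the sequence before their start sites. Each stretch below is the part of the RefSeq promoter window, up to 250 bases before the start of transcription, that lies outside the gene as annotated by GENCODE, read 5′ to 3′ on the strand of the gene. The sequences come from the RefSeq table for GRCm38.p6 and were each found at a single place of GRCm39, whose coordinates are given. Casp4 lies at chr9:5308599-5308827 on the plus strand, Casp12 at chr9:5345226-5345414 on the plus strand, Ccng1 at chr11:40646149-40646363 on the minus strand and Ripk3 at chr14:56026325-56026564 on the minus strand. Mdm2, at chr10:117546731-117546913 on the minus strand, is added because it is the classic p53 target whose window can be set beside that of Ccng1. Capitals mark a p53 half-site in Ccng1 and Mdm2 and a kappaB site in Casp4.
Casp4: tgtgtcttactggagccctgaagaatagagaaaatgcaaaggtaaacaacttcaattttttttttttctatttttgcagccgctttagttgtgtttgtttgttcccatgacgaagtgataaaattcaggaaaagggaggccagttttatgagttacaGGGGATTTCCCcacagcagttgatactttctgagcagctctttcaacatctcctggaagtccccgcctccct
Casp12: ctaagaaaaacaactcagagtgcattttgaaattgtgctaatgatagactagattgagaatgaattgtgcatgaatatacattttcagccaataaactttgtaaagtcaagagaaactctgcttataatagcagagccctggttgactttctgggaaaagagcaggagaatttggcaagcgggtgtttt
Ccng1: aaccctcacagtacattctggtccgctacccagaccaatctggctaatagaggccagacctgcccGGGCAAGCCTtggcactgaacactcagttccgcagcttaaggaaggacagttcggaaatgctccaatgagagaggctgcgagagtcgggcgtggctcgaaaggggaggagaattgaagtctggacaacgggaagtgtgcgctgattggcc
Ripk3: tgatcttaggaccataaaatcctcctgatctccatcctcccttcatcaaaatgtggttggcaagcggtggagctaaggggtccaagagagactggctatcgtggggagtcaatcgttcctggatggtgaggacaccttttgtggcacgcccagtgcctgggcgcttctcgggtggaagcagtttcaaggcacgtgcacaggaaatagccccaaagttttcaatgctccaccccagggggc
Mdm2: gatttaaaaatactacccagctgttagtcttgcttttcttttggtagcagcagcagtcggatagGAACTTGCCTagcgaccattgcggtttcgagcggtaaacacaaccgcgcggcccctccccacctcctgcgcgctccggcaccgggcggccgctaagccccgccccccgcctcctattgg

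The p53 half-site, searched on both strands of the full 250 bases, began at position -185 in Ccng1 and at -186 in Mdm2, counted back from the RefSeq start. It was present in 7.13% of 32841 promoter windows of the same length, and in 6 of the 54 windows that belong to members. The genes with such a window were Bax, Bmf, Ccng1, Mdm2, Sesn1 and Trp53, of which Ccng1 was more than 2-fold apart and the other 5 were not. The kappaB site, bound by NF-kappaB, gave 2 overlapping matches in Casp4, the first at -93, and was present in 3.90% of all windows. It was in 4 windows of members, those of Casp4, of Bbc3, with a log2 fold change of -0.46, and of Bcl2l1, with 0.13. TATAAA, found in 12.4% of all windows, was in 3 of the members' windows. The Ripk3 window held 8 CpG dinucleotides and the Casp12 window 1, beside a median of 6 over all windows. In all, 39 members had a window in the table, and a match of letters is a description of the sequence and not of binding.

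Ripk3 is the kinase that phosphorylates Mlkl, the pore-forming effector of necroptosis. Its level was 10.4 FPKM in WT against 0.396 FPKM in KO, a log2 fold change of -3.03 that came to -1.51 with a pseudocount of 5 and -4.40 with 0.1. This was the widest difference among the members past the filter. In genes with a mean of 5 to 20 FPKM, where Ripk3 falls only through its WT value, 2.91% were more than 2-fold lower. Mlkl was 19.1 FPKM in WT and 23.0 FPKM in KO, and Ripk1, the kinase upstream of both death and NF-kappaB signalling, was 12.3 and 13.2 FPKM. The kinase between them was thus low in KO while both partners were close to their WT levels, and the level of Mlkl over that of Ripk3 went from 1.84 in WT to 58.2 in KO, a ratio over a value below 1 FPKM whose counting error is unknown. Ripk3 lies on chromosome 14 of GRCm39, from 56022452 to 56026324. Among its 83 neighbouring genes, meaning genes that pass the filter and start at most 5 Mb away, the median log2 fold change was -0.10, and none was as low as Ripk3. The nearest, Nfatc4, 34.3 kb away, was 2.71 FPKM in WT and 1.74 FPKM in KO. The few genes nearest to Ripk3 had a median of -0.33, with a range from -0.72 to 0.69. Of the 83 neighbours, 3 were more than 2-fold lower and 1 more than 2-fold higher, beside 3.43% and 2.84% of all genes. The lowest was Rnase4, at 27.5 FPKM in WT and 4.17 FPKM in KO. The higher one, Sdr39u1, 111 kb away, was listed at 0 in WT and at 8.47 FPKM in KO.

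Casp4, the mouse receptor caspase for cytosolic lipopolysaccharide, was 0.851 FPKM in WT and 6.13 FPKM in KO, a log2 fold change of 1.95. Casp12, a related caspase linked to stress of the endoplasmic reticulum, was 3.52 and 10.4 FPKM, a log2 fold change of 1.33. Casp1, which cleaves interleukin 1 beta, was 1.40 FPKM in WT and 0.416 FPKM in KO, with a mean below the filter. Casp12 was the highest of the cluster in both libraries, while Casp1 was above Casp4 in WT and below it in KO, an order that rests on values below 1 FPKM. Together the 3 genes summed to 5.77 FPKM in WT and 16.9 FPKM in KO. At these low levels large ratios are common, and 7.82% of genes with a mean of 1 to 5 FPKM, where Casp4 falls, were more than 2-fold higher, against 2.32% of those at 5 to 20 FPKM, where Casp12 falls. The 3 genes follow each other on the plus strand of chromosome 9, Casp1 from 5298508 to 5307290, Casp4 from 5308828 to 5336783 and Casp12 from 5345415 to 5373034 in GRCm39. All 13 neighbouring genes of Casp4 were higher in KO. They include Casp12 but not Casp1, which was lower in KO and did not pass the filter. Their median log2 fold change was 0.27, and the neighbours of Casp12, Casp4 among them, had the same median. After subtraction of that median, Casp4 kept 1.68 and Casp12 kept 1.07, both beyond 2-fold relative to that median. Casp12 ranked 3 of the 14 genes, since Cfap300 in the same stretch, at 0.425 FPKM in WT and 2.80 FPKM in KO, had a log2 fold change of 1.41. Birc2, an inhibitor of apoptosis in the same stretch, was 10.1 and 10.7 FPKM, and Birc3 beside it was listed at 0 in both libraries.

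The genes that act with the inflammatory caspases were mostly silent. Of 11 inflammasome and pyroptosis genes, 3 passed the filter. Gsdmd, the pore former cleaved by Casp1 and Casp4, was 18.9 FPKM in WT and 16.3 FPKM in KO, and Gsdme was 12.5 and 14.1 FPKM. Aim2, a cytosolic sensor of DNA that recruits Casp1, was 0.015 FPKM in WT and 8.52 FPKM in KO, a log2 fold change of 3.23, beside a median of 0.16 among its 49 neighbours on chromosome 1. Aim2 and Casp4 were both below 1 FPKM in WT, at unlike levels, and both passed the filter only through their values in KO. Pycard, the adaptor between Aim2 and Casp1, was listed at 0 in both libraries, as were Il1b, Nlrc4 and Mefv. Il18, a substrate of Casp1, was 0.065 and 0.942 FPKM, below the filter.

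**Figure D2:**
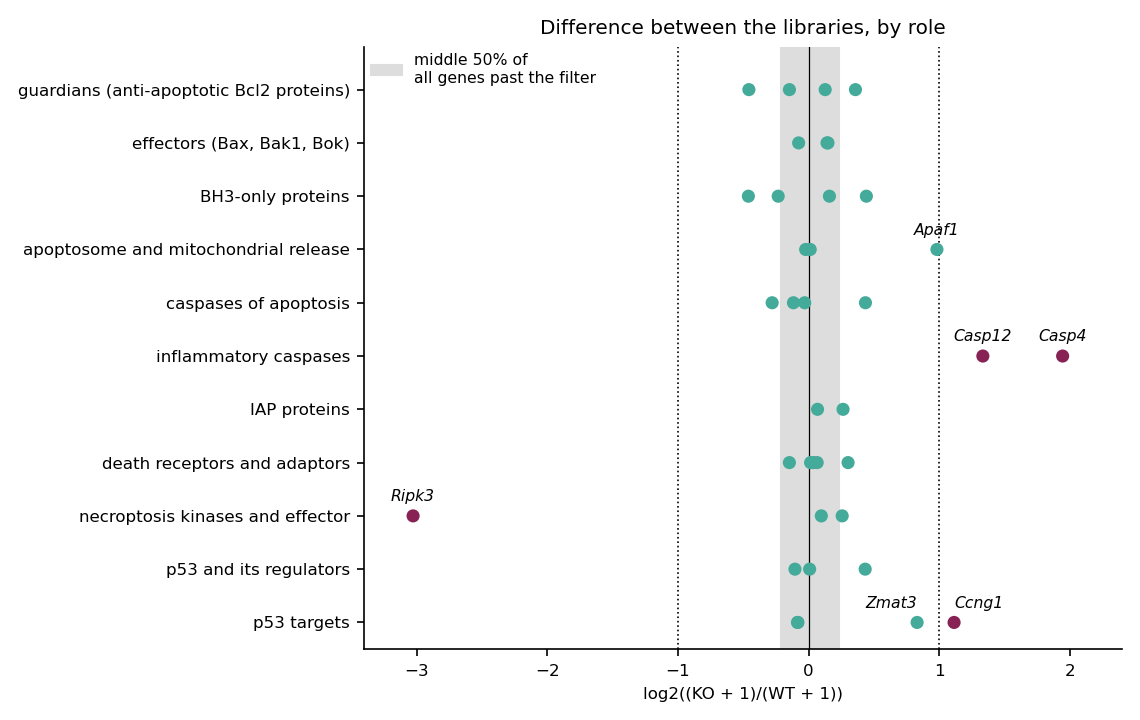
Log2 fold change of the 37 members past the filter, KO against WT, by role, with 1 point per gene. Dotted lines mark 2-fold and the grey band the middle 50% of all 10542 genes, from -0.21 to 0.23, and most points lie in or near the band, with Ripk3 at -3.03 and Casp4 at 1.95 farthest out.

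Ccng1 encodes cyclin G1, a p53 target that recruits a phosphatase to Mdm2. Its level was 69.3 FPKM in WT against 151 FPKM in KO, a log2 fold change of 1.11. Ccng1 was the most abundant of the 4 genes, and 1.10% of genes averaging 20 FPKM or more lay above the upper 2-fold line. Ccng1 lies on chromosome 11 from 40639377 to 40646148, and its 11 neighbours had a median log2 fold change of -0.12 and reached at most 0.67. Nudcd2, whose annotation overlaps Ccng1 on the opposite strand, was 65.0 and 66.3 FPKM. Zmat3, an RNA-binding p53 target, was 6.83 FPKM in WT and 12.9 FPKM in KO, a log2 fold change of 0.83, and 0.58 after subtraction of its neighbours' median of 0.25. Sesn1, an inhibitor of mTORC1 signalling, was 17.5 and 16.4 FPKM, and Trp53inp1, a p53 cofactor linked to autophagy, was 4.55 and 4.25 FPKM. Perp, an epithelial junction protein that p53 induces, was 0.024 FPKM in WT and listed at 0 in KO.

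p53 itself and its inhibitors Mdm2 and Mdm4 lay within 1.5-fold. Trp53 was 166 FPKM in WT and 155 FPKM in KO, the second highest level of all members in both libraries. Mdm2, the ubiquitin ligase that degrades p53, was 29.1 and 39.7 FPKM, a log2 fold change of 0.43, and its 30 neighbours on chromosome 10 had a median of 0.34. Relative to those neighbours Mdm2 kept 0.10. Mdm4, the partner that masks the transactivation domain of p53, was 16.4 and 16.5 FPKM. Among 14 further genes that control p53, 11 passed the filter. More than 2-fold apart in either direction were 6.27% of all genes and 0 of these 11. Their median log2 fold change was 0.22, beside 0.0061 for all genes, with 6 higher and 5 lower in KO. More than 1.5-fold apart was 1 of the 11, Atm, at 5.05 FPKM in WT and 8.19 FPKM in KO. Its log2 fold change was 0.60, beside a median of 0.30 among its neighbours on chromosome 9. Usp7, the most abundant of them, was 39.4 and 38.9 FPKM. Cdkn2a, whose Arf product restrains Mdm2, was listed at 0 in both libraries.

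A wider list of p53 targets lay on both sides of 0. Of 24 further p53 targets, all past the filter, 1 lay above the upper 2-fold line, beside 2.84% of all genes. Below the lower line lay 0 of the 24, beside 3.43%. By any amount, 10 of the 24 were higher and 14 lower. Their median log2 fold change was -0.07, with a range from -0.90 to 1.37, and 5 of the 24, or 20.8%, were more than 1.5-fold apart, beside 15.2% of all genes. The gene past the line was Dcxr, a carbonyl reductase, at 4.54 FPKM in WT and 13.3 FPKM in KO. Cdkn1a, the cell cycle inhibitor through which p53 arrests cells, was 85.1 and 78.2 FPKM, and Phlda3, an inhibitor of Akt, was 169 and 177 FPKM. Rps27l, the most abundant of the list, was 552 FPKM in WT and 742 FPKM in KO. Its log2 fold change was 0.43, beside a median of 0.31 among its neighbours on chromosome 9. Fdxr, a mitochondrial reductase, lay at the low end with 14.5 and 7.36 FPKM.

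**Figure D3:**
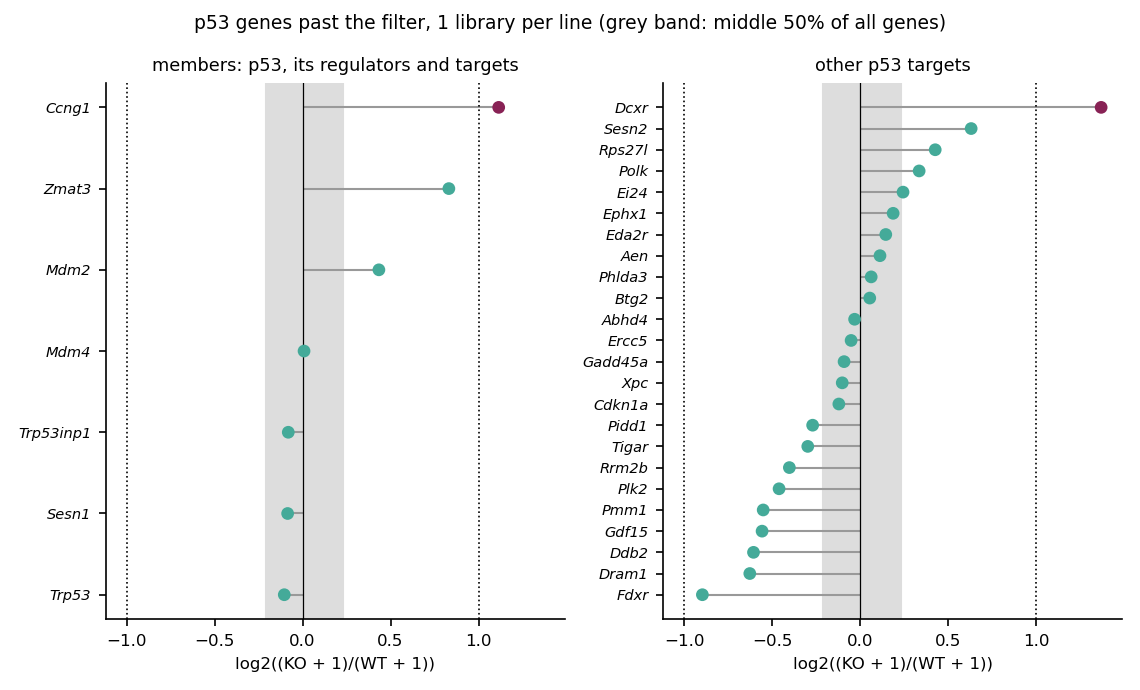
Log2 fold change, KO against WT, of p53, its regulators and its targets among the members (left) and of 24 further p53 targets (right), 1 point per gene past the filter. The grey band is the middle 50% of all genes and the dotted lines are 2-fold, and beyond the right line lie Ccng1 at 1.11 and Dcxr at 1.37, while the other targets lie on both sides of 0.

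The guardians of the Bcl2 family were led by Mcl1, at 94.2 FPKM in WT and 85.0 FPKM in KO. Bcl2l1 was 34.1 and 37.4 FPKM and Bcl2l2 was 16.2 and 11.5 FPKM, a log2 fold change of -0.46. Bcl2 was low, with 1.84 FPKM in WT and 2.64 FPKM in KO. Bcl2a1b, one of several nearly identical copies between which reads cannot be divided safely, was listed at 0 in both libraries. The copies Bcl2a1a and Bcl2a1d were listed at 0 in both as well. In sum the guardians amounted to 146 FPKM in WT and 137 FPKM in KO, with none past the 2-fold line.

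The effectors summed to more than the guardians in both libraries, although Mcl1 alone was above Bak1 and Bok. Bax, the most abundant member of all, was 189 FPKM in WT and 179 FPKM in KO. Bak1 was 59.5 and 65.8 FPKM, and Bok, a relative that acts without BH3-only input, was 71.6 and 79.4 FPKM. The sum of the effectors was 320.1 FPKM in WT and 325 FPKM in KO. Guardians over effectors gave 0.457 in WT and 0.421 in KO, a ratio within each library that no scaling between libraries can move.

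Of the 8 BH3-only genes, 4 passed the filter and none of these was more than 2-fold apart. Bad was 71.5 FPKM in WT and 80.0 FPKM in KO. Bid, which Casp8 cleaves to link death receptors to mitochondria, was 40.0 and 54.8 FPKM, a log2 fold change of 0.44. Bbc3, the p53-induced protein PUMA, was 6.14 and 4.19 FPKM, a log2 fold change of -0.46, and Bcl2l11, known as BIM, was 3.90 and 3.17 FPKM. Bbc3 and Ccng1, both p53 targets, thus differed in opposite directions, Bbc3 by less than 1.5-fold, and p53 activity was not tested. The other 4 were near 0, with Bik at 0.805 FPKM in WT and Pmaip1, the p53-induced protein NOXA, at 0.288 FPKM in WT, both listed at 0 in KO. Bmf was 0.375 and 0.432 FPKM, and Hrk was listed at 0 in both libraries.

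Downstream of the mitochondria, Apaf1 was the gene nearest to the 2-fold line. Apaf1 was 3.55 FPKM in WT and 8.00 FPKM in KO, 2.25 times higher, with a log2 fold change of 0.98 that lay just short of 1. Apaf1 lies on chromosome 10 from 90825173 to 90918686. Of its 36 neighbours 33 were higher in KO, with a median log2 fold change of 0.38, and Apaf1 was the highest of all 37 genes. After subtraction of the neighbours it kept 0.60. Ikbip, which starts 0.042 kb from Apaf1 on the other strand, was 16.6 and 25.3 FPKM, so both genes of this divergent pair were higher in KO. Cycs, which encodes cytochrome c and has many processed pseudogenes that can draw its reads, was 59.5 and 60.0 FPKM. Diablo, which releases caspases from IAP proteins, was 40.5 and 39.9 FPKM.

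The caspases of apoptosis lay within 1.5-fold. Casp8, the initiator at death receptors, was 11.1 FPKM in WT and 15.3 FPKM in KO, and Casp9, the initiator at the apoptosome, was 9.76 and 8.93 FPKM. Casp2 was 9.73 and 9.51 FPKM and Casp6 was 12.5 and 10.1 FPKM. Casp9 and Cycs, the partners of Apaf1, were thus near their WT levels in KO. Among 26 further caspase and mitochondrial death genes, 20 passed the filter, with a median log2 fold change of -0.16. More than 2-fold apart were 6.27% of all genes and 0 of these 20. Vdac1, a channel of the outer mitochondrial membrane and the most abundant of them, was 270 and 230.3 FPKM. Xiap, an inhibitor of caspases, was 18.2 and 22.1 FPKM.

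**Figure D4:**
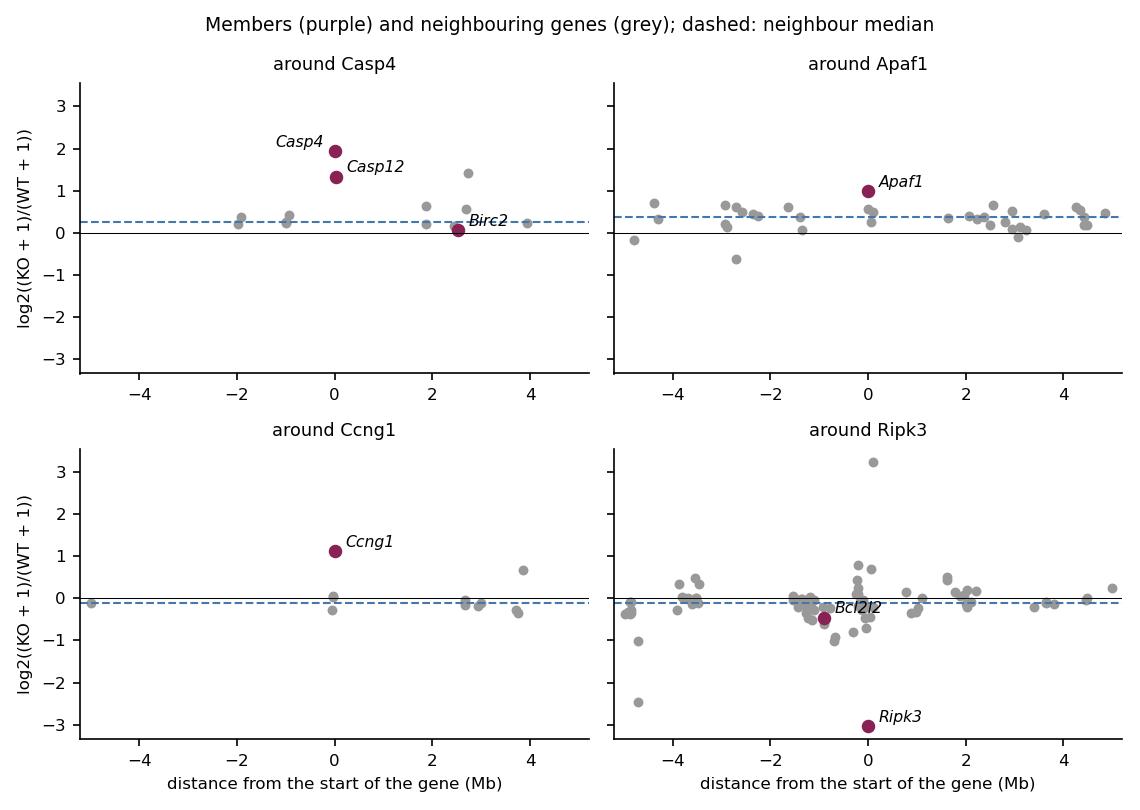
Log2 fold change, KO against WT, of genes past the filter within 5 Mb of Casp4, Apaf1, Ccng1 and Ripk3, against the distance of their start from that of the named gene. Members are purple, other genes grey and the dashed line is the median of the neighbours, which is 0.27 around Casp4, 0.38 around Apaf1, -0.12 around Ccng1 and -0.10 around Ripk3, and the named genes lie well off it.

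All death receptors and adaptors on the list passed the filter and none was more than 1.5-fold apart. Tnfrsf1a, the main receptor for TNF, was the most abundant with 66.5 FPKM in WT and 68.3 FPKM in KO. Tnfrsf10b, the mouse receptor for TRAIL, was 11.6 and 10.4 FPKM, and Fas was 2.22 and 2.37 FPKM. Receptor levels were therefore close in both libraries, including that of Fas and Tnfrsf10b, which p53 can induce. The adaptor Fadd was 5.03 and 5.10 FPKM, and Cflar, the decoy that restrains Casp8, was 10.3 and 12.9 FPKM. Cflar and Casp8 are neighbours on chromosome 1, and their log2 fold changes were 0.30 and 0.44, beside neighbour medians of 0.08 and 0.10.

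Among 22 further genes of death receptor and NF-kappaB signalling, 17 passed the filter, with a median log2 fold change of 0.01. More than 2-fold apart were 6.27% of all genes and 0 of these 17. Nfkbia, an inhibitor of NF-kappaB and the most abundant of this list, was 52.7 FPKM in WT and 41.9 FPKM in KO. Cyld, a deubiquitinase that promotes death signalling by Ripk1, was 31.7 and 17.7 FPKM, a log2 fold change of -0.81, within a stretch of chromosome 8 whose genes had a median of -1.44 around it. Tnfrsf21 was 4.64 and 8.86 FPKM and Tnfaip3 2.36 and 4.85 FPKM. The ligands Fasl, Tnf and Tnfsf10 were listed at 0 or stayed below 0.1 FPKM in both libraries.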

How the data were processed

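The authors deposited 1 value per gene symbol for each of 2 C2C12 libraries, which name no unit and are taken here as FPKM, because they are decimals whose totals differ between libraries. A TPM table limited to these genes remains possible. Per the labels, total RNA went into stranded mRNA libraries. The methods name TrimGalore, STAR against GRCm39 and RSEM, while the submitters' processing notes list Trim Galore 0.6.6, STAR 2.7.9a and RSEM 1.3.3 with GRCm38 and GRCh38. Use of strand in counting is not given in the sources used here. The read number is unknown. Among 406 genes between 0.02 and 0.1 FPKM in both libraries the commonest KO to WT ratio was 1.14, so 1 read may weigh that much more in KO.

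Of 21853 entries, 24 repeated a symbol and the higher row was kept. Neighbours used GENCODE vM39 on GRCm39, which located 10171 of 10542 genes. All members were named with their values. Of the other lists, genes more than 2-fold apart and the most abundant gene were named by rule, and the rest after their values were seen. Members and lists were chosen with earlier results of these data known. Alternatives were other pseudocounts, filters and scalings, subtraction of neighbours and summing of repeated symbols. Promoter windows were also searched for an interferon-type motif, which is not reported here. The code was checked on planted fold changes. Python 3.11.15, numpy 2.4.6 and pandas 2.3.3 were used.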

Additional observations from a re-analysis of the deposited data

How the results depend on the processing

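No paired analysis was possible because each line has 1 library and the result comes from no test, and for the same reason no replicate could be left out. The 3 members more than 2-fold higher in KO became 1 with a pseudocount of 5, when Casp4 and Casp12 came to 0.93 and 0.85 and Ccng1 was left. They became 4 with a pseudocount of 0.1 or with equal totals, when Apaf1 was added. For equal totals both libraries were scaled up to a common larger total, so the pseudocount of 1 weighed less. Shifts under equal totals are thus mainly those of a smaller pseudocount, since the deposited totals were close. Among all genes the counts of 299 higher and 362 lower became 102 and 176 at a pseudocount of 5. They became 145 and 221 when genes had to average 5 FPKM, a filter that keeps fewer genes and drops Casp4. Ripk3 was the 1 member more than 2-fold lower under all 8 alternatives, with -1.51 at a pseudocount of 5, -4.40 at 0.1 and -3.51 with equal totals, and Casp4 was 2.71 at a pseudocount of 0.1. In 254 comparisons of single members with their alternatives 6 moved by more than 0.44, the interquartile range of all genes. Among those beyond 2-fold 0 changed sign, which most of the alternatives could not have brought about. Some smaller differences did change sign after subtraction of neighbours, such as Birc2 from 0.07 to -0.30 and Casp2 from -0.03 to 0.14. The members' median lay between 0.01 without a filter and 0.10 after subtraction of neighbours. Without read numbers, values below 1 FPKM, such as those of Casp4 in WT and Ripk3 in KO, have an unknown counting error.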

Other observations

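Several members share their locus with a gene on the opposite strand, and since the use of strand is unknown their reads cannot be told apart for certain. Bid overlaps Bcl2l13, a mitochondrial relative of the Bcl2 family, which was 30.9 FPKM in WT and 43.4 FPKM in KO, in the same direction as Bid. Casp6 overlaps Mcub, a subunit of the mitochondrial calcium uniporter, which was 43.1 and 9.28 FPKM, a difference far wider than that of Casp6. Ripk1 overlaps Serpinb6a, a protease inhibitor, which was 524 and 323 FPKM, while Ripk1 itself was slightly higher in KO. Trp53 overlaps Wrap53, at 11.6 and 12.6 FPKM.

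Between the libraries, the level of Mdm2 over that of Trp53 went from 0.175 in WT to 0.256 in KO, and that of Bcl2l1 over Bax from 0.181 to 0.209.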
